A study of Saccharomyces cerevisiae with 6 samples.

Results

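The genes described here are 57 DNA repair and checkpoint genes of the budding yeast *Saccharomyces cerevisiae*. They were taken by gene name from a table of 7122 genes and grouped by textbook role into 9 sub-pathways. These were nucleotide excision repair (10 genes), base excision repair and direct reversal (8), mismatch repair (3), strand exchange (6), end resection (5), joint molecule processing (6), lesion bypass (7), checkpoint (8) and end joining (4). The grouping followed these roles, but the genes and groups were chosen with earlier results of these data known. All 57 genes passed the filter on low values.

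The series sequenced RNA of WT and *ths1-C268A* cells, with 3 samples of either strain that are lettered A to C. Both strains derive from BY4741, a haploid laboratory strain of mating type a that lacks *LEU2*, *MET17*, *URA3* and part of *HIS3*. *ths1-C268A* also carries a Cys-to-Ala change in threonyl-tRNA synthetase (ThrRS), which removes the activity that clears Ser attached to tRNA for Thr by mistake. The study describes this strain as CRISPR-engineered and adds that the changed ThrRS is less stable at the raised temperature. Cells of both strains grew in YPD medium at 30 °C to the log phase and spent 2 h at 37 °C before collection, and no sample was kept at 30 °C, so the comparison is between strains after the shift. The study calls the replicates biological. Whether they came from separate cultures is not given in the sources used here, so the p values measure the spread between these samples.

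Cells remove damaged bases and bulky lesions by excision and correct mispaired bases behind the replication fork. They mend broken chromosomes by recombination with an intact copy or by joining the ends, and they pass lesions that block the fork with special polymerases. Checkpoint kinases sense damage, hold the cell cycle and raise the supply of nucleotides. In yeast only some of these genes respond to damage at the level of mRNA, and some are transcribed mainly at the start of S phase.

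The deposited values are FPKM, fragments per kilobase of coding length, scaled to the fragments of the sample. The genes of each sample held 16597937 to 19114041 fragments, and 227 to 5075 fragments stood behind each value of a repair gene. Fragments outside the listed genes made up 18.3 to 18.7% of the FPKM denominator in WT and 10.6 to 13.4% in *ths1-C268A*, which lowers WT values relative to the mutant on the FPKM scale. Every sample had *URA3*, *LEU2* and *MET17* at a listed 0, as the genotype has it. The receptor gene of mating type a, *STE2*, was at 261 to 355 FPKM and that of mating type α, *STE3*, at 4.33 to 6.00 FPKM. *THS1* mRNA had a mean of 169 FPKM with an SD of 14.0 over the 3 WT samples and of 243 FPKM with an SD of 38.1 over the 3 mutant samples, but a point mutation leaves its mRNA uninformative about the strain labels.

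The repair genes were expressed at low to middle levels. Their mean over the 6 samples ran from 8.65 FPKM for *RAD53* to 164 FPKM for *RAD23*, with a median of 31.2 FPKM against 56.5 FPKM over the 6447 genes tested. *RAD23*, which helps to find bulky lesions and also ferries proteins to the proteasome, was followed by the ubiquitin-conjugating enzyme gene *RAD6* (132 FPKM), the DNA glycosylase gene *MAG1* (99.8 FPKM), *RMI1* (96.6 FPKM) and *RAD54* (83.8 FPKM). The genes of the large damage-sensing kinases stood at the other end, *MEC1* at 15.0 FPKM and *TEL1* at 10.3 FPKM, with their target kinase *RAD53* lowest. The sub-pathway with the lowest median level was checkpoint (17.8 FPKM) and that with the highest was strand exchange (54.9 FPKM). The spread between replicates was wider in the mutant. The median coefficient of variation of the 57 genes was 4.82% over the WT samples and 8.69% over the *ths1-C268A* samples, and 46 of the 57 genes had a larger SD in the mutant.

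**Figure D1:**
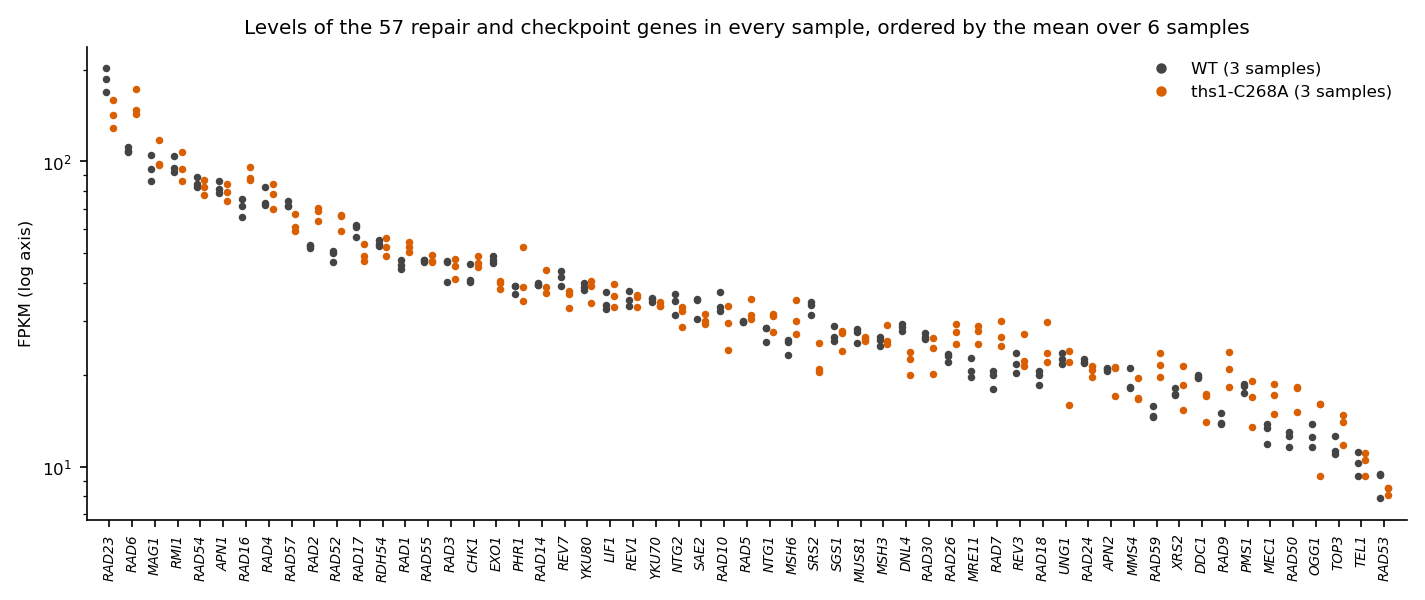
FPKM on a log axis of each of the 57 genes in each sample, 3 WT (dark) and 3 *ths1-C268A* (orange), ordered by the mean over the 6 samples. Levels ran from *RAD23* at 164 FPKM to *RAD53* at 8.65 FPKM, and for most genes the points of both strains lay together.

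The strains were compared by limma on log2(FPKM + 1) over the 6447 genes whose mean reached 1 FPKM, two-sided, and a gene was called at an adjusted p (Benjamini-Hochberg) under 0.05. Of the 57 genes 13 were called. *RAD9*, *RAD59*, *RAD6*, *RAD7*, *RAD50*, *RAD52*, *MRE11*, *RAD2* and *RAD16* rose in *ths1-C268A*, and *SRS2*, *RAD23*, *DNL4* and *EXO1* fell. The changes were small, from 1.20-fold for *EXO1* to 1.48-fold for *SRS2*. The 13 genes were 22.8% of the 57, against 26.4% of all genes tested. The 9 higher genes were 15.8%, against 14.2% of all genes, and the 4 lower genes were 7.02%, against 12.1%. The values of both strains did not overlap for 24 of the 57 genes (42.1%), 15 higher and 9 lower in the mutant, against 45.6% of all genes. By each of these counts the repair genes were near or below the background. Leaving out 1 sample moved the counts. They were 2 higher and 1 lower without WT A, 1 and 0 without WT B, 2 and 1 without WT C, 12 and 5 without *ths1-C268A* A, 5 and 1 without *ths1-C268A* B and 7 and 2 without *ths1-C268A* C, while the share called among all genes went from 10 to 33.3%.

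The other 44 genes did not pass. Their log2 fold changes ran from -0.28 for *DDC1* to 0.35 for *MEC1*. For each of the 44 the 95% interval lay within a 2-fold change in either direction, and for 37 it lay within 0.5 on the log2 scale. At an unadjusted p under 0.05, 14 of the 57 genes were higher and 8 were lower. The share of all genes at that threshold is not given here, so these counts have no background to be read against. The median log2 fold change of the 57 genes was 0.01 and that of all genes tested was -0.0025. When the protein-coding genes of each sample were set to an equal total, which removes the difference in fragments outside genes, the median of all genes moved to -0.115 and that of the 57 genes to -0.101, and the called genes then split into 5 higher and 8 lower. In limma-voom on the fragments, which scales each sample to its fragments in the genes tested, the split was 6 and 8. Over all genes tested it was 613 and 1388 there. With the equal total the median of the repair genes was 0.0144 above that of all genes. *RAD59*, *RAD6*, *RAD7*, *RAD9* and *RAD2* were the genes that passed as higher with the equal total, and *RAD57*, *REV7*, *RAD17* and *DDC1* joined the 4 lower genes there.

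**Figure D2:**
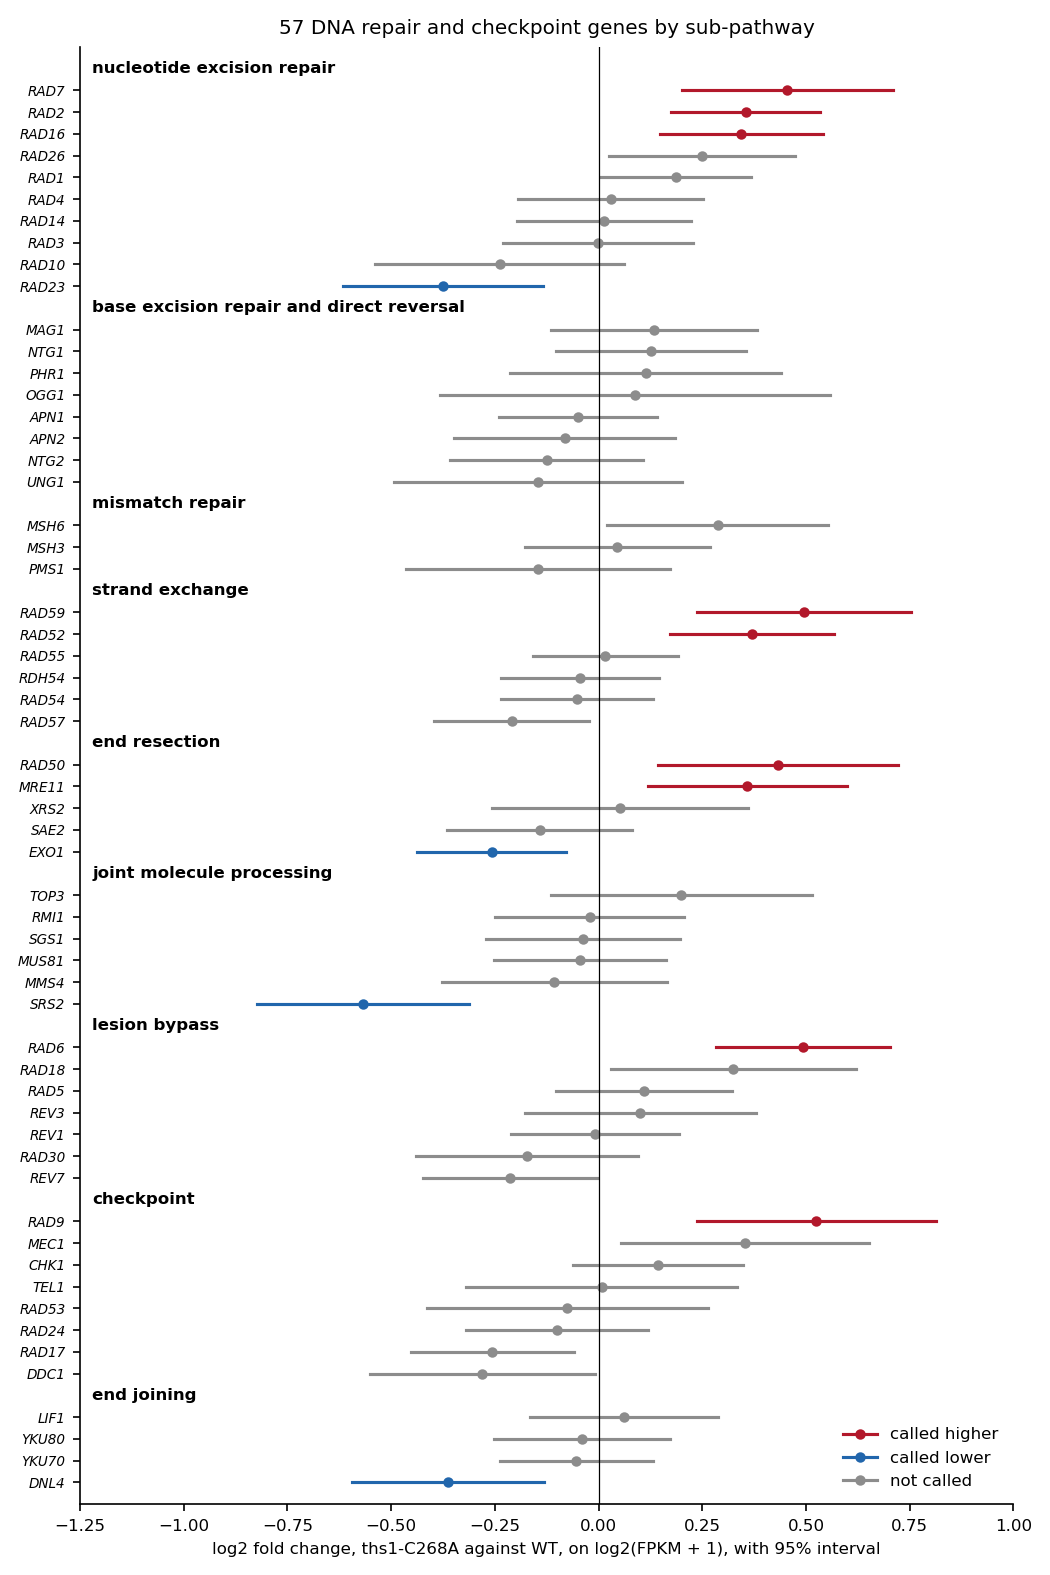
Log2 fold change of *ths1-C268A* against WT on log2(FPKM + 1) for each of the 57 genes, by sub-pathway, with the 95% interval of limma from 3 samples per strain. Red points were called higher (9 genes), blue points lower (4 genes) and grey points were not called, and 7 of the 9 sub-pathways hold a called gene.

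Nucleotide excision repair cuts out an oligonucleotide around a bulky lesion such as an ultraviolet photoproduct. Of its 10 genes 3 rose and 1 fell. *RAD7* and *RAD16* encode the partners that find lesions in the DNA that is not being transcribed, and both rose. *RAD7* (YJR052W, chrX:532062-533759, plus strand) was at 18.0, 20.0 and 20.5 FPKM in WT A, B and C and at 26.7, 30.0 and 24.8 FPKM in *ths1-C268A* A, B and C. All 3 mutant samples lay above all 3 WT samples. The log2 fold change of *RAD7* was 0.46 (SE 0.111, adjusted p = 0.0208 in limma). Its adjusted p ran from 0.0223 to 0.0773 over the fits that left out 1 sample, and the call was lost without WT A, WT B, WT C or *ths1-C268A* B. *RAD16* (YBR114W, chrII:467248-469620, plus strand) was at 75.4, 65.7 and 71.4 FPKM in WT and at 86.9, 88.0 and 95.6 FPKM in the mutant. The groups did not overlap, and the log2 fold change was 0.34 (SE 0.0857, adjusted p = 0.0220 in limma). The call of *RAD16* was lost without WT B or WT C (adjusted p up to 0.114), with an equal total (0.0707), in limma-voom (0.0557) and after correction for length and GC content (0.109).

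*RAD2* encodes the nuclease that cuts on the 3′ side of the lesion. It (YGR258C, chrVII:1007671-1010766, minus strand) was at 52.9, 51.9 and 53.3 FPKM in WT and at 63.8, 70.7 and 68.7 FPKM in the mutant. The WT samples lay close together and every mutant sample was higher. Its log2 fold change was 0.35 (SE 0.0785, adjusted p = 0.0149 in limma), but 0.16 after correction for length and GC content (adjusted p = 0.111). The call of *RAD2* was also lost without WT A, WT B or WT C, with an adjusted p of up to 0.0790.

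*RAD23* fell. It (YEL037C, chrV:81407-82603, minus strand) was at 169, 186 and 202 FPKM in WT and at 159, 142 and 129 FPKM in *ths1-C268A*. WT A and mutant A were the closest pair, and the groups did not overlap. The log2 fold change was -0.38 (SE 0.105, adjusted p = 0.0329 in limma), and -0.35 after correction for length and GC content (0.0188). Without WT A, WT B, WT C, *ths1-C268A* B or *ths1-C268A* C the call of *RAD23* was lost, with an adjusted p of up to 0.115. It was also lost with no filter on low values, in limma without its variance trend and with the replicate letter as a block (0.0695).

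The remaining genes of nucleotide excision repair were not called. *RAD26*, which acts where a lesion has stalled RNA polymerase, had a log2 fold change of 0.25 (adjusted p = 0.0929 in limma). *RAD1* had 0.19 (0.114) and *RAD10* had -0.24 (0.203), and their products form the nuclease that cuts on the 5′ side. After correction for length and GC content *RAD1* had -0.01 (adjusted p = 0.901 in limma) and *RAD10* had -0.14 (0.407). *RAD4*, *RAD14* and *RAD3*, which encode the partner of Rad23, a damage-binding protein and the helicase of TFIIH, lay between -0.00 and 0.03.

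Base excision repair removes small altered bases through a glycosylase and an endonuclease, and photolyase reverses a photoproduct directly with light. None of these 8 genes was called, none reached an unadjusted p under 0.05, none was called in limma-voom, and in none did the strains separate. The smallest p belonged to *NTG1*, a glycosylase gene for oxidised bases, at 28.4, 28.6 and 25.6 FPKM in WT and 31.3, 31.6 and 27.5 FPKM in the mutant. The samples of *NTG1* overlapped, and its log2 fold change was 0.13 (95% interval -0.10 to 0.36, adjusted p = 0.369 in limma). *MAG1*, which removes alkylated bases, was at 86.1, 94.3 and 105 FPKM in WT and at 97.2, 98.3 and 118 FPKM in the mutant. The uracil glycosylase gene *UNG1* had a log2 fold change of -0.15, and the endonuclease genes *APN1* and *APN2* had -0.05 and -0.08. *OGG1*, at 16.1, 16.1 and 9.34 FPKM in the mutant, and the photolyase gene *PHR1*, at 35.0, 38.8 and 52.5 FPKM there, showed a wide spread in the mutant, with *ths1-C268A* C apart from the other samples.

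Mismatch repair was represented by 3 genes and none was called, with 1 at an unadjusted p under 0.05 and 0 in limma-voom. That gene was *MSH6*, whose product recognises single mispaired bases. *MSH6* was at 26.0, 25.7 and 23.3 FPKM in WT and at 27.2, 35.3 and 30.1 FPKM in *ths1-C268A*. The groups did not overlap, yet the log2 fold change of 0.29 (SE 0.117) had an adjusted p of 0.0990 in limma. It passed when *ths1-C268A* A was left out (0.0408). *MSH3*, for insertion loops, and *PMS1*, for the downstream nicking step, had log2 fold changes of 0.05 and -0.15.

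Strand exchange pairs a resected end with the intact copy of the sequence. *RAD52*, which loads the recombinase and anneals strands, and its relative *RAD59* rose, and the other 4 genes were not called. *RAD52* (YML032C, chrXIII:212515-213930, minus strand) was at 50.2, 46.7 and 51.0 FPKM in WT and at 66.7, 66.3 and 59.2 FPKM in the mutant. Every mutant sample was above every WT sample, and the log2 fold change was 0.37 (SE 0.0861, adjusted p = 0.0176 in limma). It was lost without WT A, WT B or WT C (adjusted p up to 0.0919) and with an equal total (0.0589).

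*RAD59* (YDL059C, chrIV:344237-344953, minus strand) was among the genes with the fewest fragments. It was at 14.6, 14.5 and 15.8 FPKM in WT and at 21.5, 23.5 and 19.7 FPKM in *ths1-C268A*, from 227 to 336 fragments per sample. The groups were well apart, and the log2 fold change was 0.50 (SE 0.113, adjusted p = 0.0167 in limma). The call of *RAD59* was lost without WT A or WT B (up to 0.0772) and in limma-voom on the fragments (0.0642). *RAD55* and *RAD57* encode a heterodimer that steadies the recombinase filament. *RAD55* differed little, at 46.9, 47.5 and 47.5 FPKM in WT and 47.2, 46.8 and 49.6 FPKM in the mutant. *RAD57* was at 71.2, 71.5 and 74.5 FPKM in WT and 67.2, 59.3 and 61.2 FPKM in the mutant. It did not overlap between strains but missed the threshold (log2 fold change -0.21, adjusted p = 0.0895 in limma). The translocase genes *RAD54* and *RDH54* had log2 fold changes of -0.05 and -0.04.

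End resection trims the 5′ strand of a broken end. *RAD50* and *MRE11*, subunits of the complex that binds and opens the end, rose, their partner *XRS2* did not pass, and *EXO1*, an exonuclease that carries on the trimming, fell. *RAD50* (YNL250W, chrXIV:175410-179348, plus strand), the ATPase that bridges ends, was at 13.0, 12.6 and 11.6 FPKM in WT and at 15.1, 18.3 and 18.1 FPKM in the mutant. *MRE11* (YMR224C, chrXIII:718575-720653, minus strand), the nuclease of the complex, was at 22.8, 19.7 and 20.6 FPKM in WT and at 25.2, 27.8 and 28.9 FPKM in the mutant. In both genes the groups did not overlap and *ths1-C268A* A was the lowest mutant sample. The log2 fold change was 0.43 for *RAD50* (SE 0.127, adjusted p = 0.0375 in limma) and 0.36 for *MRE11* (SE 0.105, adjusted p = 0.0377 in limma). Each of these calls was lost without any WT sample and without *ths1-C268A* B or C, with an adjusted p of up to 0.121 for *RAD50* and 0.152 for *MRE11*. They were also lost with an equal total (0.0762 and 0.0950) and after correction for length and GC content (0.138 and 0.0852), and *MRE11* was lost in limma-voom (0.0698). With the replicate letter as a block both were lost (0.08251 and 0.08765), and *MRE11* was lost with no filter on low values.

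*XRS2*, which carries the complex into the nucleus and binds the kinase Tel1, was at 18.1, 17.2 and 17.4 FPKM in WT and at 15.3, 21.4 and 18.6 FPKM in the mutant. Its mutant samples lay on both sides of WT, and its log2 fold change was 0.05 (adjusted p = 0.800 in limma). *SAE2*, which starts the nuclease, had -0.14 (0.298). *EXO1* (YOR033C, chrXV:392416-394524, minus strand), the long-range 5′ exonuclease that also serves mismatch repair, was at 48.8, 46.6 and 47.5 FPKM in WT and at 38.3, 40.7 and 40.1 FPKM in the mutant. Replicates of *EXO1* agreed closely in both strains and the groups did not overlap. Its log2 fold change of -0.26 (SE 0.0788, adjusted p = 0.0434 in limma) was the smallest of the called changes, and leaving out any of the 6 samples took the adjusted p to between 0.0585 and 0.137. The call of *EXO1* was also lost in limma without its variance trend and with the replicate letter as a block (0.108).

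Joint molecule processing takes apart the structures in which recombining molecules are linked. *SRS2*, a helicase that strips the recombinase from single-stranded DNA, fell, and this was the largest change among the 57 genes. *SRS2* (YJL092W, chrX:257423-260947, plus strand) was at 34.0, 34.6 and 31.5 FPKM in WT and at 20.4, 20.9 and 25.5 FPKM in *ths1-C268A*. Mutant C was nearer to WT than mutant A and B, and the groups did not overlap. The log2 fold change was -0.57 (SE 0.112, adjusted p = 0.00974 in limma) and -0.78 after correction for length and GC content (0.00237). Only without WT B was it above the threshold (0.0520). The other 5 genes were not called and their strains overlapped. *SGS1*, *TOP3* and *RMI1*, whose products dissolve linked junctions together, had log2 fold changes of -0.04, 0.20 and -0.02, and *MUS81* and *MMS4*, which encode the subunits of a nuclease for branched DNA, had -0.04 and -0.11. *TOP3* and *MMS4* overlap a listed ORF on the opposite strand by 222 and 384 bp, and without the strand of the libraries such fragments cannot be told apart, but these ORFs were listed at means of 1.22 and 0 FPKM. *REV1*, *RAD24* and *RAD10* share 335, 356 and 6 bp with such an ORF.

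Lesion bypass depends on ubiquitin placed on the sliding clamp of the fork. *RAD6*, which encodes the ubiquitin-conjugating enzyme and also serves histone H2B and the N-end rule, rose. *RAD6* (YGL058W, chrVII:393986-394504, plus strand) was at 108, 108 and 111 FPKM in WT and at 143, 173 and 147 FPKM in the mutant. The lowest mutant sample of *RAD6* stood well above the highest WT sample. Its log2 fold change was 0.49 (SE 0.0917, adjusted p = 0.00796 in limma). Of the 13 calls this alone held in all 6 fits that left out 1 sample (0.00703 to 0.0431), and after correction for length and GC content it was 0.62 (0.00652).

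*RAD18*, the ubiquitin ligase partner of Rad6 at the fork, was at 18.5, 20.6 and 20.0 FPKM in WT and at 22.1, 23.6 and 29.8 FPKM in *ths1-C268A*. The groups did not overlap, but mutant C lay far above the others and the log2 fold change of 0.32 (SE 0.129) had an adjusted p of 0.0944 in limma. *RAD5*, the helicase and ligase of the error-free branch, had a log2 fold change of 0.11. Among the bypass polymerases, *REV3* and *REV7*, the subunits of polymerase zeta, had 0.10 and -0.21, *RAD30*, polymerase eta, had -0.17, and *REV1* had -0.01 (adjusted p of 0.557, 0.115, 0.293 and 0.952 in limma).

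In the checkpoint group *RAD9* rose and the other 7 genes were not called. *RAD9* (YDR217C, chrIV:899551-903480, minus strand) encodes the adaptor that passes the signal from Mec1 to Rad53. It was at 15.0, 13.9 and 13.8 FPKM in WT and at 18.3, 23.8 and 20.9 FPKM in the mutant. All mutant samples were above WT, with mutant B highest. The log2 fold change of 0.52 (SE 0.126, adjusted p = 0.0197 in limma) was the largest rise among the 57 genes, and it was 0.30 after correction for length and GC content (0.0492). The call of *RAD9* was lost without WT A, WT B, WT C or *ths1-C268A* B, with an adjusted p of up to 0.0802.

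*MEC1*, the kinase upstream of *RAD9*, was at 13.8, 13.4 and 11.8 FPKM in WT and at 14.9, 17.1 and 18.7 FPKM in the mutant. Its groups did not overlap, and the log2 fold change of 0.35 (adjusted p = 0.0767 in limma) was 0.07 after correction for length and GC content. The clamp genes *RAD17* and *DDC1* lay on the other side. *RAD17* was at 61.9, 60.8 and 56.7 FPKM in WT and at 53.7, 47.3 and 48.8 FPKM in the mutant (log2 fold change -0.26, adjusted p = 0.0581 in limma). *DDC1* was at 19.5, 20.1 and 19.6 FPKM in WT and at 17.3, 14.0 and 17.1 FPKM in the mutant (-0.28, adjusted p = 0.111 in limma). Neither clamp gene overlapped between strains, and both passed as lower with an equal total (0.0202 and 0.0442). *TEL1*, *RAD53*, the clamp loader gene *RAD24* and the effector kinase gene *CHK1* had log2 fold changes between -0.10 and 0.14.

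End joining seals broken ends without a template. *DNL4*, the ligase that makes the final seal, fell. *DNL4* (YOR005C, chrXV:334509-337343, minus strand) was at 29.4, 28.7 and 27.9 FPKM in WT and at 22.6, 20.0 and 23.8 FPKM in *ths1-C268A*. The groups did not overlap, and the log2 fold change was -0.36 (SE 0.101, adjusted p = 0.0327 in limma) and -0.53 after correction for length and GC content (0.0111). It was lost without WT A, WT B, WT C or *ths1-C268A* B, with an adjusted p of up to 0.119. With the replicate letter as a block *DNL4* was lost too (0.0723). Its partner *LIF1* had a log2 fold change of 0.06, and *YKU70* and *YKU80*, whose products form the ring that holds the ends, had -0.05 and -0.04.

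**Figure D3:**
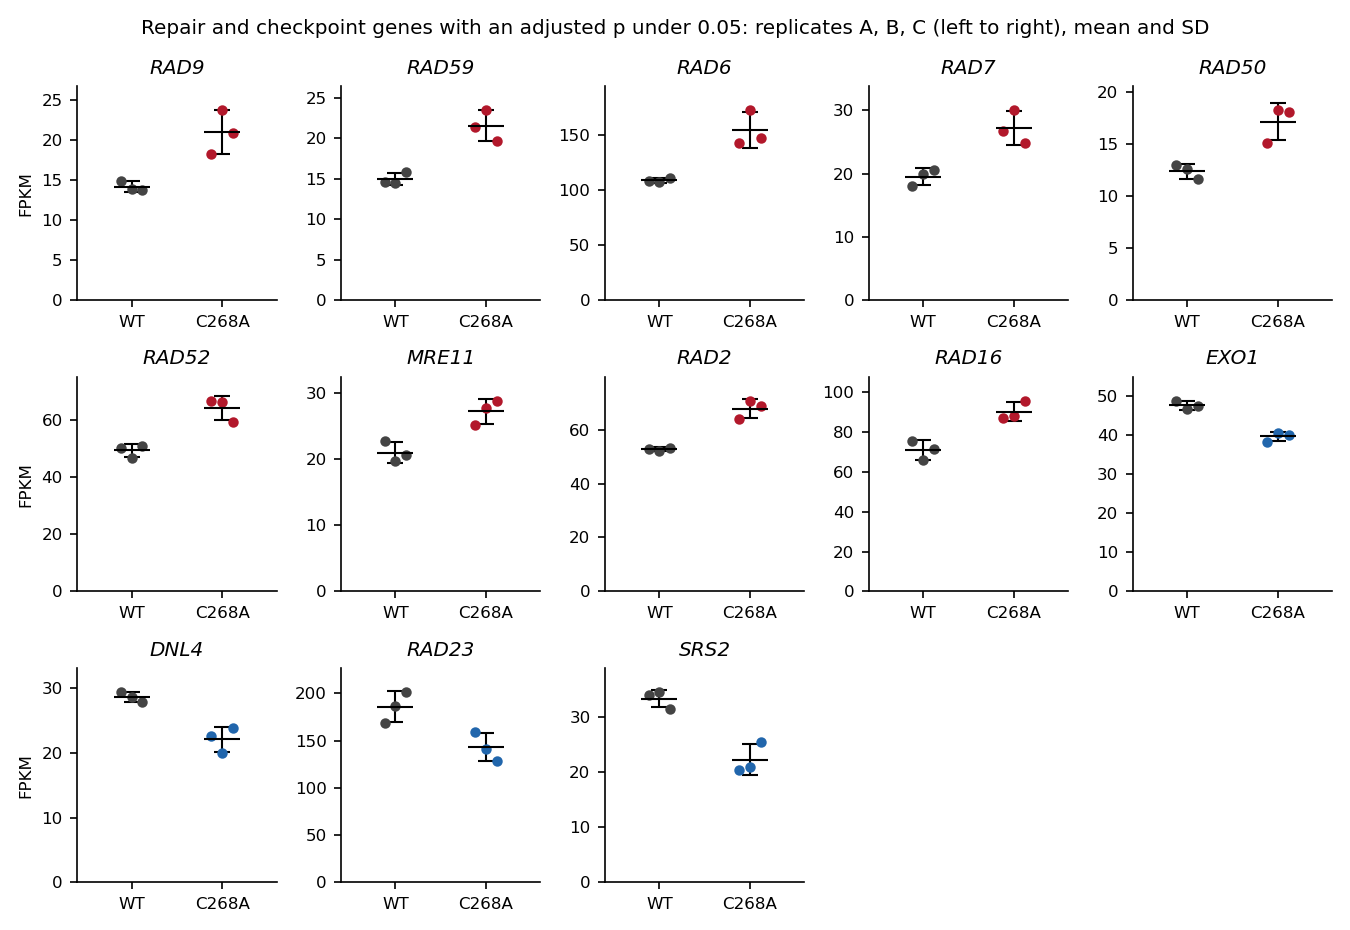
FPKM of the 13 called genes in each sample, with axes from 0, replicates A, B and C from left to right, and the mean and SD of the 3 samples of each strain. The 9 genes with red points were higher and the 4 with blue points lower in *ths1-C268A*, and in each panel the strains did not overlap.

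The sub-pathways differed little in their medians, and the differences between them were not tested. On the log2 scale the median change was 0.11 for nucleotide excision repair, 0.10 for lesion bypass, 0.05 for end resection, 0.05 for mismatch repair and 0.02 for base excision repair and direct reversal. It was -0.01 for strand exchange, -0.03 for checkpoint, -0.04 for joint molecule processing and -0.05 for end joining. Each range was wider than the gap between any of these medians, for example from -0.38 to 0.46 in nucleotide excision repair and from -0.28 to 0.52 in the checkpoint group. Changes in opposite directions stood within the same sub-pathway in nucleotide excision repair and end resection.

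The fold changes also moved with gene length. Over 6176 protein-coding genes tested the log2 fold change had a Spearman correlation of 0.371 with coding length, and over the 57 genes it was 0.181. These correlations are across genes, which share the same 6 libraries. The 57 genes had a median length of 1899 bp, against 1140 bp over the protein-coding genes. The mutant samples did not behave alike here. The deviation of each sample from the mean of the 6 had a correlation with length of 0.363 in *ths1-C268A* B and 0.391 in C but -0.0842 in A, and from -0.434 to -0.142 in the WT samples. These values are over the protein-coding genes tested. Over the 57 genes they were -0.4 in *ths1-C268A* A, 0.264 in B, 0.358 in C and -0.236 to -0.00178 in the WT samples. The lowest mutant sample was *ths1-C268A* A in 26 of the 57 genes and in 6 of the 9 higher ones. Whether length plays a part in the changes of single genes was not tested beyond the correction.

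After a loess correction of each sample for length and GC content the median log2 fold change of the 57 genes was -0.116 and that of all genes -0.0103, and every sub-pathway except base excision repair (0.01) had a median at or below 0, down to -0.22 for checkpoint. The Spearman correlation of the log2 fold change with length over the 57 genes went from 0.181 to -0.226. The correction, fitted over all protein-coding genes, thus left a trend in the other direction among the 57. Of the 13 calls 9 were kept. *RAD50*, *MRE11*, *RAD2* and *RAD16*, which are 2079 to 3939 bp long, were lost. *RDH54* (-0.22, adjusted p = 0.0412 in limma) and *SGS1* (-0.28, adjusted p = 0.0314 in limma) then passed as lower. The split among the 57 genes became 5 higher and 6 lower, against 803 higher and 806 lower over all genes tested. The short genes *RAD6* (519 bp) and *RAD59* (717 bp) had larger fold changes after the correction, and the long genes *SRS2* and *DNL4* fell further.

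**Figure D4:**
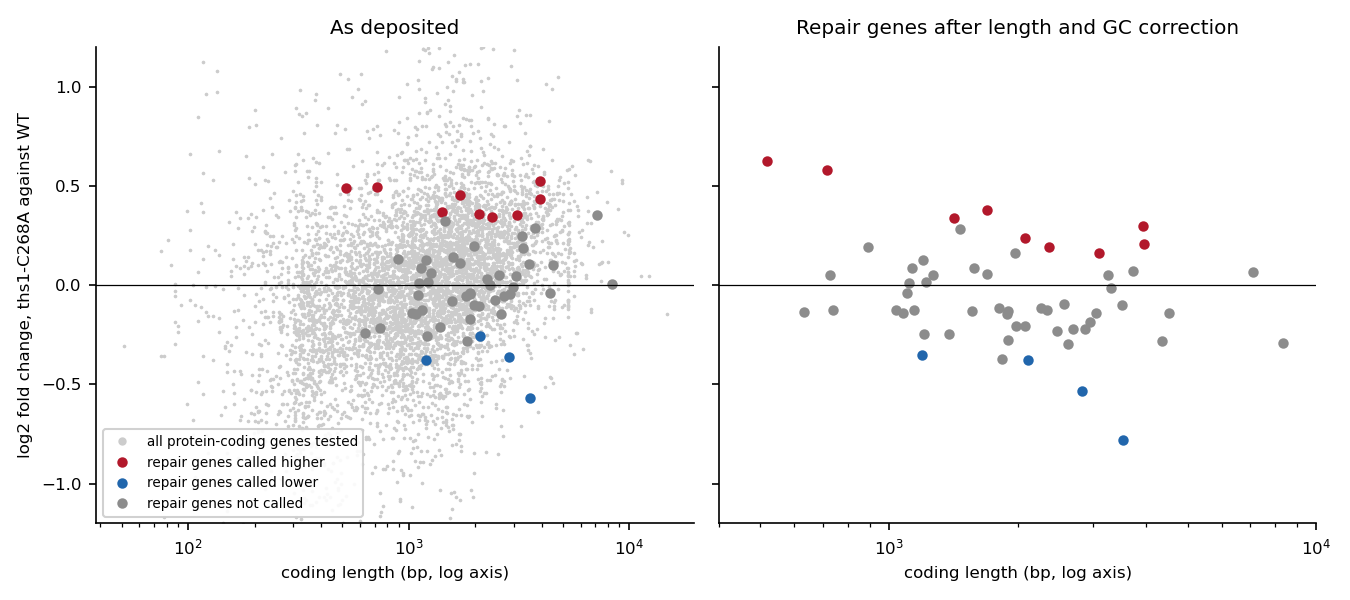
Log2 fold change of *ths1-C268A* against WT against coding length on a log axis, as deposited (left, 57 repair genes over the 6176 protein-coding genes tested, of which 98 lie outside the plotted range) and after correction of each sample for length and GC content (right, repair genes only). Colours give the calls on the deposited values, and on the right *RAD6* and *RAD59* at the short end stand highest while *SRS2* stands lowest.

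Ratios were taken for pairs of genes whose products work in the same complex. These pairs were picked with the fold changes known, so the ratios are a description. The ratios were taken on the deposited values, without the correction for length and GC content. Of 14 ratios of FPKM within a sample, 7 did not overlap between strains and 7 did, and no share for unrelated genes was computed. The ratio of *RAD23* to *RAD4* was 2.31, 2.58 and 2.44 in WT and 1.88, 2.02 and 1.64 in the mutant. *XRS2* to *MRE11* went from 0.797, 0.874 and 0.840 to 0.608, 0.770 and 0.642, while *RAD50* to *MRE11* was 0.572, 0.640 and 0.563 in WT and 0.599, 0.660 and 0.628 in the mutant. The first and second of these ratios did not overlap between strains, and that of *RAD50* to *MRE11* did. *LIF1* to *DNL4* was 1.15, 1.30 and 1.18 in WT and 1.60, 1.98 and 1.39 in the mutant. *RAD55* to *RAD57* was 0.658, 0.664 and 0.638 in WT and 0.702, 0.789 and 0.810 in the mutant. Both were higher in every mutant sample. *YKU80* to *YKU70* was 1.12, 1.06 and 1.13 in WT and 1.16, 1.02 and 1.17 in the mutant, and its samples overlapped. Those of *RAD16* to *RAD7*, *MMS4* to *MUS81*, *RAD18* to *RAD6*, *SGS1* to *TOP3* and *DDC1* to *RAD17* overlapped as well. Those of *RAD1* to *RAD10*, *REV7* to *REV3* and *RMI1* to *TOP3* did not.

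Of 60 other repair and checkpoint genes, 6 rose and 8 fell (23.3%, near the 26.4% of all genes tested), with a median log2 fold change of -0.05. The counts were 3 and 3 without WT B, 3 and 4 without WT C, and 4 and 5 without *ths1-C268A* C. With an equal total they were 4 and 14, against 524 and 1285 over all genes tested. In limma-voom they were 5 and 15, against 613 and 1388. *TFB5*, a small subunit of TFIIH, which also holds Rad3, rose from 44.1 ± 2.97 to 67.2 ± 3.91 FPKM (SD, n = 3; log2 fold change 0.60, adjusted p = 0.00346 in limma). *FUN30*, a chromatin remodeller that aids long resection, rose from 28.9 ± 1.10 to 53.8 ± 11.7 FPKM (0.86, adjusted p = 0.00520 in limma). *CSM3*, which steadies paused forks, fell from 31.4 ± 1.99 to 18.0 ± 1.56 FPKM (-0.77, adjusted p = 0.00282 in limma), and *DUT1*, which destroys dUTP, fell by 0.49 on the log2 scale (0.00683). Of the 4 genes of the Shu complex, which works with Rad55 and Rad57, *CSM2*, *PSY3* and *SHU2* fell (-0.77, -0.42 and -0.44) and *SHU1* had -0.07. In the Rtt101 ubiquitin ligase, of 3 genes *RTT101* and *MMS22* rose (0.46 and 0.43) and *MMS1* had 0.35 (adjusted p = 0.0512 in limma). The genes of both complexes were named after their values were seen. Of all genes tested 12.1% were called lower and 14.2% higher. Among the same 60 genes, the 8 of the Smc5/6 complex, 2 of mismatch repair and 2 of end joining held no call. *PSY3* lost its call without any of the WT samples (adjusted p up to 0.0815), and *SHU2* without WT B, WT C, *ths1-C268A* B or *ths1-C268A* C (up to 0.115). *RTT101* lost it without WT B or WT C (up to 0.0627), and *MMS22* without any of the WT samples, *ths1-C268A* B or *ths1-C268A* C (up to 0.119), with an equal total (0.0682) and after correction for length and GC content (0.214). *DUT1*, with an adjusted p of 0.0611, and *SHU2*, with 0.0713, did not pass after correction for length and GC content.

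Some repair genes are transcribed at the start of S phase by MBF, a factor that binds the MCB element ACGCGT. A list of 19 known targets of MBF and the G1 to S transition outside the 57 genes was chosen with earlier results of these data known. Of these targets 12 fell (63.2%, against 12.1% of all genes tested). Called higher were 0 of them (1 at an unadjusted p under 0.05, and 0 in limma-voom), and their median log2 fold change was -0.65. The MCB element was in 11 of their 19 promoters. Those with the smallest p were *TOS4* at -1.32, the thymidylate synthase gene *CDC21*, which has an ORF on its opposite strand, at -1.32, the S-phase cyclin gene *CLB5* at -0.70 and the primase gene *PRI2* at -0.65 (adjusted p of 0.00108, 0.00165, 0.00188 and 0.00235 in limma). In such bulk samples fewer cells at a stage and less RNA per cell cannot be told apart. Of 4 genes of the ribonucleotide reductase branch that the checkpoint releases from the repressor Rfx1, *HUG1* fell from 35.1 ± 3.49 to 7.90 ± 2.89 FPKM (SD, n = 3; log2 fold change -2.06, adjusted p = 0.000721 in limma) and *RNR2*, which has an ORF on its opposite strand, from 235 ± 7.71 to 186 ± 13.2 FPKM (-0.33, adjusted p = 0.0231 in limma). *RNR3* and *RNR4* had -0.54 and -0.22 (adjusted p of 0.0661 and 0.162 in limma). The calls of *HUG1* and *RNR2* were 50% of this list, against 12.1% of all genes tested called lower. In limma-voom 4 of the 4 passed as lower, against 1388 of the 6447 genes tested. This list was also chosen with earlier results of these data known. The call of *RNR2* was lost without any of the WT samples (up to 0.0815).

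The MCB element was searched on both strands from 250 bases before to 50 after the start codon of each gene in the RefSeq R64 genome. It was in 6 of the 57 repair promoters (10.5%), against 2.92% of 6687 promoters. The 7 sites are shown with 12 bases on either side, on the strand of the gene and with the element in capitals, because these are the repair genes that share the element with the falling S-phase genes.
RAD17, chrXV:1026735-1026764, plus strand, 90 bases before the start codon: aggtggctagagACGCGTaacaaaagttaa
UNG1, chrXIII:230857-230886, minus strand, 55 bases before: aatgtgtccgcaACGCGTaattcatccata
RAD5, chrXII:204842-204871, plus strand, 131 bases before: gctgaaaattttACGCGTcataaaccctta
MSH6, chrIV:644016-644045, minus strand, 190 bases before: cggagaaaataaACGCGTgagcagtagctg
MSH6, chrIV:643996-644025, minus strand, 170 bases before: gcagtagctgatACGCGTctcactttttca
MMS4, chrII:441395-441424, plus strand, 102 bases before: aaagggcttgcaACGCGTtgaagtaccctt
PMS1, chrXIV:473253-473282, plus strand, 120 bases before: cgaaaagaaaagACGCGTctctcttaataa

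None of these 6 genes was called (1 higher and 1 lower at an unadjusted p under 0.05, and 1 lower in limma-voom). Their log2 fold changes ran from -0.26 for *RAD17* to 0.29 for *MSH6*, whose promoter holds the element in 2 places, with a median of -0.13, against 0.01 over the repair genes without it. Over all 192 tested genes with the element 40 fell and 12 rose, with a median of -0.12. Over all 6447 genes tested 783 fell and 916 rose. The repair genes with the element thus had a median near that of all genes with it. The median of the 19 MBF targets, a list chosen with earlier results of these data known, was -0.65. The SBF element (CACGAAA or CGCGAAA) was also in 6 repair promoters (10.5%, against 7.36% of all), the Gcn4 site TGACTCA in 3 windows (5.26% against 2.71%) and the GGTGGCAAA form of the Rpn4 element in 0 (against 1.14%). Other forms of the Rpn4 element were not searched, so the count does not cover them. Of the Gcn4 matches only that of *REV3* lay before the start codon, by 40 bases, and those of *RAD5* and *YKU80* lay within or after it. No promoter of the 13 called genes held any of these motifs. A match or its lack says only whether the letters are in this window.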

How the data were processed

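The data are Illumina RNA-seq of total RNA from 6 samples, with libraries from a commercial provider. The authors deposited FPKM values for each gene and sample with gene names, coordinates and coding lengths. The submitters' processing notes name HISAT2 and no version of it. For the annotation, the counting tool, poly(A) selection and strandedness, nothing is given in the sources used here. FPKM multiplied by length was a whole multiple of 1 step per sample, within 0.01, for 100% of values above 0, which gave the fragments per gene. Their number limits the precision of genes at a low level. The test took in the 6447 genes whose mean over the 6 samples reached 1 FPKM.

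The strains were compared with limma 3.58.1 in R 4.3.3, with empirical Bayes moderation and a trend of the variance, on log2(FPKM + 1). Strain was the only term and adjustment was over all genes tested. Fold changes are on that scale, which slightly understates those of low genes. The paper's text names no test for the transcriptome. The 57 genes and all other lists were chosen with earlier results of these data known. Named were the called genes, the gene with the smallest p in a sub-pathway without a call, and up to 4 genes with the smallest p of each other list. Any of the 57 genes could also be named, and genes of other lists outside this rule are marked in the text. Tried in its place were a pseudocount of 0.1 or 5, a filter at 10 FPKM or none, scaling by median ratios or to an equal total of protein-coding genes, limma without the trend, limma-voom on fragments, loess correction (span 0.5) for length alone or with GC content, the replicate letter as a block, and each sample left out in turn. The test was run on simulated fragments with the same spread in both strains and no trend with length. That check does not cover the wider mutant spread or the length trend seen here. All 57 genes had the same coordinates in the RefSeq R64 annotation, from which promoters were read. No 2 samples of a strain agreed within sampling noise.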

Additional observations from a re-analysis of the deposited data

How the results depend on the processing

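All 13 called genes kept their direction under every alternative. The count of higher genes among the 57 was 9 as reported, 5 with an equal total, 5 after correction for length and GC content, 5 after correction for length alone, and 1 to 12 with 1 sample left out. The count of lower genes was 4 as reported, 2 without the trend, 7 after correction for length alone, 8 with an equal total, 8 in limma-voom, and 0 to 5 with 1 sample left out. Over all genes tested 916 were higher and 783 lower as reported, 524 and 1285 with an equal total, and 613 and 1388 in limma-voom. After correction they were 803 and 806 for length and GC content, and 793 and 784 for length alone. The median log2 fold change of the 57 genes went from 0.0075 to -0.101 with an equal total, -0.109 in limma-voom, -0.116 after correction for length and GC content and -0.114 for length alone, and lay from -0.01 to 0.0257 with 1 sample left out. Among the other repair genes 8 were lower as reported, 5 with no filter, 14 with an equal total, 15 in limma-voom, 13 after correction for length alone, and 3 to 11 with 1 sample left out, and 6 were higher as reported and 3 to 8 with 1 sample left out. Of the MBF targets 0 to 1 were higher with 1 sample left out. The equal total shifts all genes together by its construction. For the other changes the cause was not tested.

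The replicate letters did not pair the samples, since the deviations of same-lettered samples correlated at -0.232, 0.0618 and -0.0115. With the letter as a replicate block 7 of the 57 genes were higher and 1 lower, and 5 of the other repair genes were lower.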
